A study of Rattus norvegicus with 21 samples.

Results

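The genes of tumor necrosis factor (TNF) and of nuclear factor kappaB (NF-κB) were followed in rat left ventricles. They were the cytokine gene Tnf, its receptors Tnfrsf1a and Tnfrsf1b, the subunits Nfkb1, Nfkb2, Rel, Rela and Relb, and the inhibitors Nfkbia and Tnfaip3. They were taken by name from the deposited tables and make up 10 of 26597 genes. Total RNA after removal of ribosomal sequences was sequenced from 21 F-344 Brown/Norway rats of both sexes, and the study asked what aging and the hormone relaxin (RLX) do to inflammatory signals in the heart. The groups were 9-month-old controls, 24-month-old controls and 24-month-old rats given RLX at 400 μg/kg/day, with 4 rats per group in females and 3 in males. RLX, or sodium acetate as vehicle in controls, was delivered for 14 days by an osmotic mini pump under the skin. Rats given RLX at 9 months of age were not analysed here, and the 24-month controls of each sex serve both the aging and the RLX comparison.

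TNF is an inflammatory cytokine made mainly by macrophages, and it acts through TNFR1 (Tnfrsf1a), found on most cells, and TNFR2 (Tnfrsf1b), found mainly on immune and endothelial cells. Receptor binding activates the IκB kinase complex, which marks IκBα (Nfkbia) for destruction and lets dimers such as RelA with p50, the product of Nfkb1, enter the nucleus. In a slower branch p100, the product of Nfkb2, is cut to p52, which pairs with RelB. NFKBIA and TNFAIP3 (A20) are themselves NF-κB targets and shut the response off again, and p100, RelB and c-Rel are also made under its control, so the pathway writes part of its own state into these RNAs.

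Promoter windows of 300 bases, reaching from upstream of the RefSeq start (build GRCr8) into the first transcribed bases, were found for 9 of the 10 genes, all but Relb. Each was searched on both strands for the κB consensus motif, and overlapping matches were counted as 1 stretch. A match was found in 5 of the 9 windows (55.6%) against 7.51% of 33469 windows of the same length. The share was also above that of all windows in the 4 lists of related genes described below. It was 38.5% (10 of 26 windows) for NF-κB target genes and 25.0% (4 of 16) for other inhibitors and modulators. For other TNF superfamily genes it was 21.4% (6 of 28), and for adaptors and kinases 18.8% (3 of 16). The median GC content was 63.7% in the 9 windows and 51.7% in all windows. In the 4 lists, in the order just given, it was 56.0%, 62.7%, 56.3% and 63.5%. The part of GC content in these differences was not tested. Tnfaip3 had 3 stretches, Rel had 2, and Nfkb1, Nfkb2 and Nfkbia had 1 each. Tnf, Tnfrsf1a, Tnfrsf1b and Rela had none in these windows, which says nothing of sites elsewhere. A match is a run of letters and not a measured binding site. The windows of both inhibitors and of the 2 precursor subunits are shown because each holds a match and because these genes encode the pathway's own inhibitors and precursors. They read 5′ to 3′ on the strand of the gene, with the matches in capitals. They lie at chr6:78597023-78597322 (minus strand) for Nfkbia, chr1:15543930-15544229 (minus) for Tnfaip3, chr2:226805413-226805712 (minus) for Nfkb1 and chr1:255108124-255108423 (plus) for Nfkb2.
Nfkbia: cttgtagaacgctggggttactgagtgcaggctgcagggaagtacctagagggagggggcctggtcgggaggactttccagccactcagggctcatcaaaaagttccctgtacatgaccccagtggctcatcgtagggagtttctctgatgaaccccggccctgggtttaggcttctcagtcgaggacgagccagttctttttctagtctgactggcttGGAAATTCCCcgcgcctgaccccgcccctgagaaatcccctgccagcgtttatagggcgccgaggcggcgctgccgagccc
Tnfaip3: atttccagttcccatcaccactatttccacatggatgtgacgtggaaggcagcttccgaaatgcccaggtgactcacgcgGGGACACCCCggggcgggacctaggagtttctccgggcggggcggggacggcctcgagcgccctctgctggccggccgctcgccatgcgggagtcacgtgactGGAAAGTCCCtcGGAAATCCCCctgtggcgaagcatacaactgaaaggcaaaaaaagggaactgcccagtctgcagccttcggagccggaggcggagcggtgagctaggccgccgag
Nfkb1: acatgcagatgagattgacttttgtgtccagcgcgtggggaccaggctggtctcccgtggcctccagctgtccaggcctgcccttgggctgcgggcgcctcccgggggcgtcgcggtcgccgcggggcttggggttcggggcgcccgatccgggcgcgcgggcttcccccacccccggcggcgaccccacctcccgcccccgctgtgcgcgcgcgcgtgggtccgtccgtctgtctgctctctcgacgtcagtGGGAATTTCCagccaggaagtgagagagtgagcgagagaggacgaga
Nfkb2: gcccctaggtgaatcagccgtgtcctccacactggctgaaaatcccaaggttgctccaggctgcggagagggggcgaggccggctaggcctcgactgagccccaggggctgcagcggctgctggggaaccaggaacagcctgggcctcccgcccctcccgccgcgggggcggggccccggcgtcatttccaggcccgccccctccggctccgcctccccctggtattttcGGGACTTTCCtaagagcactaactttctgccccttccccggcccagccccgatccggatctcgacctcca
The match in Nfkb2 ended 11 bases before the start, that in Nfkbia ended 22 bases before it, and that in Nfkb1 lay from base 4 to base 13 after it. In Tnfaip3 the stretch nearest to the start ended 46 bases before it.

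Total counts ranged from 11997512 to 19027947 per library, and the lowest count of any of the 10 genes was 38 reads, for Relb. The 7 cardiomyocyte markers summed to 21655 to 26258 CPM (counts scaled to TMM-normalized library sizes) in 24-month control females, below the 28375 to 33761 CPM at 9 months and the 26521 to 31801 CPM with RLX. In males they summed to 30054 to 31683 CPM in 24-month controls, 24154 to 26044 CPM with RLX and 22636 to 31910 CPM at 9 months. By the mean log2 CPM of the same 7 genes, however, RLX males (10.45 to 10.95) and 24-month control males (10.55 to 10.74) overlapped. The fibroblast markers summed to 3424 to 4070 CPM in 24-month control females, above the 1955 to 2735 CPM at 9 months and the 2228 to 2681 CPM with RLX. In males the fibroblast sums of the groups overlapped. By the mean log2 CPM of the same genes, however, 9-month males (7.90 to 8.74) lay above 24-month control males (7.14 to 7.65). RLX males, at 7.44 to 7.92, overlapped both. The part of cell makeup in the values below was not tested. Atrial muscle markers were low but not uniform and reached 454 CPM in 24-month control female 5. Erythroid markers summed to 11230 CPM in RLX female 4 and to 1414 CPM in control female 6. The part of blood in the values below was not tested. Neutrophil markers were near 0 in most libraries and highest in RLX female 4, at 31.9 CPM. The macrophage markers, 9 of 10 measured, summed to 848 to 1053 CPM in 24-month control females, against 413 to 579.8 CPM at 9 months and 487 to 847 CPM with RLX. In males they summed to 621 to 733 CPM at 24 months, 699.6 to 967 CPM at 9 months and 576 to 811 CPM with RLX. In such bulk RNA, fewer cells of a type and less RNA per cell cannot be told apart.

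Per length of transcript, Nfkbia was the most abundant of the 10 RNAs. In RPKM (reads scaled to gene length and sequencing depth, as deposited) its mean was 89.8 ± 32.8 (SD, n = 21), and it exceeded the next gene, Tnf, in 21 of 21 libraries. Tnf followed at a mean of 17.4 ± 14.5 RPKM, Rela at 16.3 ± 3.85 RPKM and Tnfrsf1a at 16.1 ± 4.57 RPKM. These 3 did not differ in level beyond their spread, since Tnf exceeded Rela in only 8 of 21 libraries and Rela exceeded Tnfrsf1a in 13. Nfkb1 (13.1 ± 3.29 RPKM) and Tnfaip3 (10.3 ± 4.95 RPKM) came next, then Nfkb2 (9.28 ± 2.94 RPKM). Rel (4.21 ± 1.80 RPKM), Relb (3.87 ± 1.41 RPKM) and Tnfrsf1b (3.67 ± 1.10 RPKM) were lowest and close together, Rel exceeding Relb in 12 libraries and Relb exceeding Tnfrsf1b in 14. The order was the same with TMM-scaled CPM per kilobase.

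**Figure D1:**
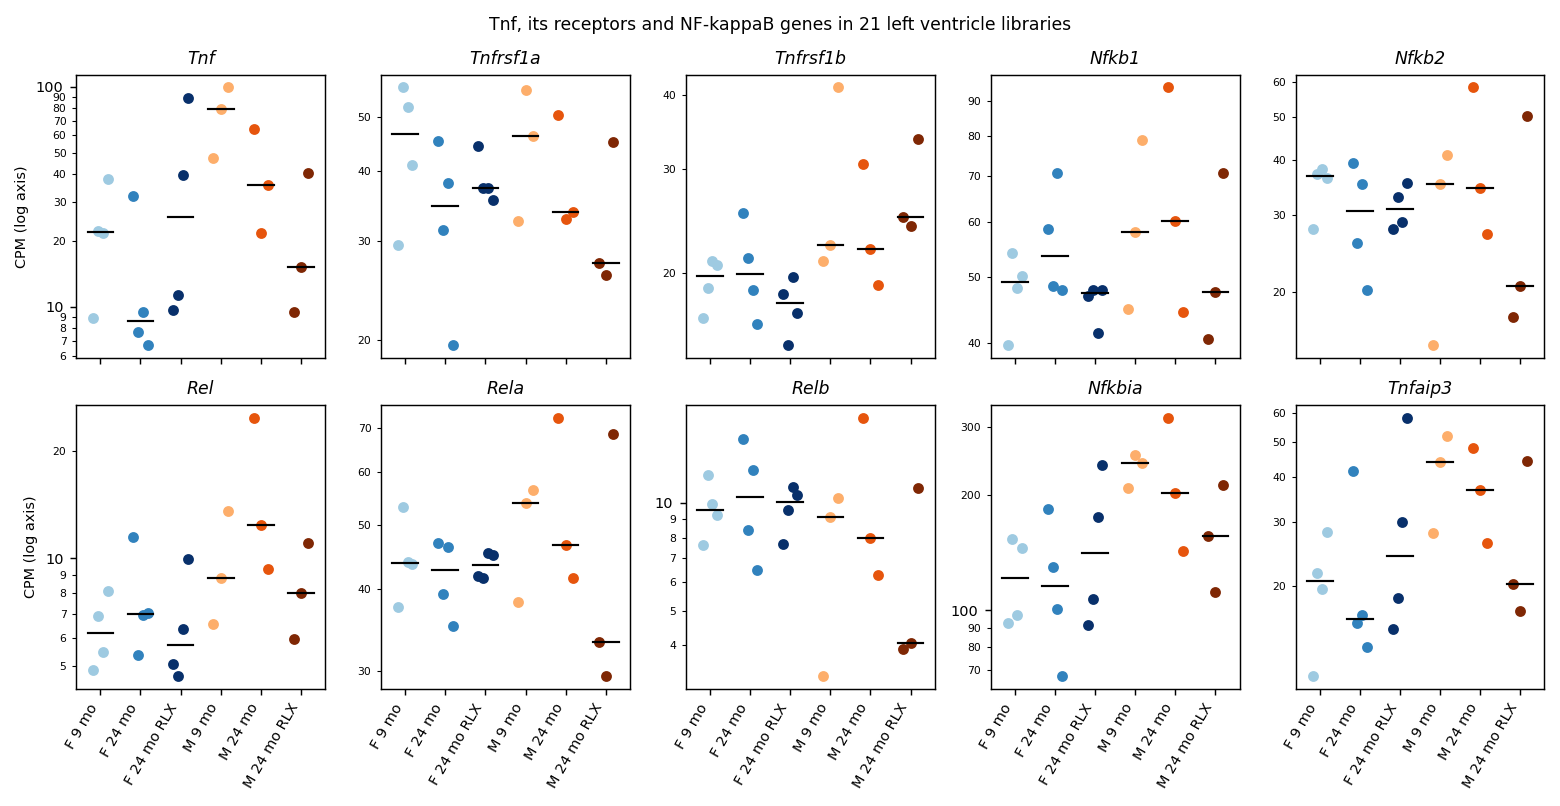
CPM (log axis) of the 10 genes in each of the 21 libraries, by sex (F, M), age in months (mo) and RLX treatment; points are rats and the bar is the group median. Groups overlapped for every gene in all 4 comparisons, and Tnf spread most, from 6.70 to 99.2 CPM.

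Tnf, the ligand, lies on chromosome 20 (6936229 to 6938839, plus strand, in the coordinates of the deposited tables, which name no genome build). It varied more between rats of a group than any other of the 10 genes. Its CPM was 8.87, 22.1, 21.6 and 38.1 in 9-month females 1, 3, 4 and 5. In 24-month control females 2, 4, 5 and 6 it was 31.9, 7.72, 9.48 and 6.70. In RLX-treated females 1, 2, 4 and 6 it was 9.64, 11.3, 39.7 and 88.8. Thus control female 2 lay inside the RLX range, and RLX females 1 and 2 lay inside the control range. Among males it was 47.4, 78.8 and 99.2 in 9-month rats 3, 2 and 4. It was 64.3, 21.6 and 35.7 in 24-month control males 12, 8 and 11. In RLX-treated males 2, 3 and 7 it was 9.45, 15.1 and 40.6. Every 9-month male stood above every 9-month female. Females and males were loaded on the sequencer at different concentrations per the study's methods, so that sex and sequencing cannot be told apart, and sexes were compared only in their responses.

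None of these group differences in Tnf passed the test. With age its log2 fold change was -0.70 (SE 0.643) in females, with an adjusted p of 0.59 in edgeR's quasi-likelihood test, and -0.92 (SE 0.393, adjusted p = 0.571) in males. The value for RLX was 1.42 (SE 0.920, adjusted p = 0.536) in aged females and -0.86 (SE 0.590, adjusted p = 0.596) in aged males. Single rats moved these values. Without RLX female 6 the value with RLX in females was 0.53, and without control female 2 it was 2.22. That in female aging was -1.49 without control female 2 and -0.33 without 9-month female 5. In male aging it was -1.40 without control male 12 and -0.60 without control male 8. With RLX in males it ran from -1.68 to -0.35 over single rats left out, the latter without control male 12. The adjusted p over all alternatives to these 4 values ran from 0.143 to 0.982.

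Both receptors were steadier. Tnfrsf1a (chromosome 4, 224881445 to 224894088, plus strand) ranged from 19.6 to 56.5 CPM over the 21 libraries, and Tnfrsf1b (chromosome 5, 166812970 to 166845910, minus strand) from 15.1 to 41.1 CPM. Tnfrsf1a averaged 44.8 ± 12.1 CPM in 9-month females, 33.6 ± 10.9 CPM in 24-month controls and 38.7 ± 3.87 CPM with RLX (SD, n = 4 each). In males the same means were 44.9 ± 11.7, 39.0 ± 9.82 and 32.9 ± 10.6 CPM (SD, n = 3 each). The largest of its differences was in female aging, -0.41 on the log2 scale (SE 0.279, edgeR adjusted p = 0.445). For Tnfrsf1b the largest was in male aging, at -0.27 (SE 0.283, adjusted p = 0.872, edgeR), and with RLX it was -0.22 in females and 0.24 in males. The last value was -0.02 once a trend on gene length was removed.

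Of the subunits, Nfkb1 (chromosome 2, 259330384 to 259421280, minus strand), which encodes p105 and p50, had the smallest p of the 10 genes. Its CPM was 46.8, 47.9, 41.4 and 47.8 in RLX-treated females 1, 2, 4 and 6. In 24-month control females 2, 4, 5 and 6 it was 58.7, 48.4, 70.6 and 47.8. In 9-month females 1, 3, 4 and 5 it was 39.8, 54.2, 48.1 and 50.2. The 24-month controls were thus the highest group by mean, and treated and control females overlapped only narrowly. The log2 fold change with RLX was -0.31 (SE 0.122), with an adjusted p of 0.293 in edgeR over 12591 genes. Without control female 5 it was -0.18, and the adjusted p ran from 0.202 to 0.469 over all alternatives. Control female 5 was also the library with the most atrial muscle markers, 454 CPM, and their part in its Nfkb1 value was not tested. With age the log2 fold change of Nfkb1 was 0.24 in females (SE 0.134, adjusted p = 0.338, edgeR). In males its mean was 60.6 ± 17.2 CPM at 9 months, 66.2 ± 25.4 CPM at 24 months and 52.9 ± 15.8 CPM with RLX (SD, n = 3 each), log2 fold changes of 0.10 with age and -0.29 with RLX. In RPKM the male means ran the other way with age, 14.7 at 9 months and 14.0 at 24 months.

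Rel (chromosome 14, 108212989 to 108231038, minus strand), the gene of c-Rel, which is best known from lymphoid and myeloid cells, was 24.7, 12.4 and 9.31 CPM in 24-month control males 12, 8 and 11. It was 5.96, 8.02 and 11.0 CPM in RLX-treated males 2, 3 and 7, and 6.57, 8.81 and 13.6 CPM in 9-month males 3, 2 and 4. Control male 12 was the highest of all 21 libraries. The log2 fold change was 0.63 with age (SE 0.382, adjusted p = 0.705) and -0.84 with RLX (SE 0.369, adjusted p = 0.418, edgeR). Without control male 12 these became 0.15 and -0.33. In females the group means lay between 6.32 and 7.70 CPM, with log2 fold changes of 0.29 with age and -0.25 with RLX.

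Rela (chromosome 1, 227928092 to 227938571, plus strand), the transactivating partner of p50, differed little between female groups. Its log2 fold change was -0.08 (SE 0.123) with age and 0.04 (SE 0.104) with RLX in females, and 0.09 and -0.26 in males. In RPKM the male means ran the other way with age, 17.6 at 9 months and 16.7 at 24 months. In RLX-treated males 2, 3 and 7 Rela was 33.2, 29.5 and 68.6 CPM, and in 24-month control males 12, 8 and 11 it was 72.5, 46.6 and 41.5 CPM. One rat thus stood apart in each of these groups. Nfkb2 (chromosome 1, 273483943 to 273490197, plus strand) and Relb (chromosome 1, 81783432 to 81810721, minus strand), the pair of the slower branch, showed the same 2 rats. Nfkb2 was 17.5, 20.6 and 50.4 CPM in RLX males 2, 3 and 7 against 58.4, 34.4 and 27.1 CPM in control males 12, 8 and 11. Relb was 3.92, 4.05 and 11.0 CPM in these treated rats against 17.3, 7.96 and 6.28 CPM in the controls. The log2 fold change with RLX was -0.40 (SE 0.448, adjusted p = 0.757) for Nfkb2 and -0.66 (SE 0.504, adjusted p = 0.634) for Relb. In the other 3 comparisons they lay between -0.20 and 0.42.

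Nfkbia (chromosome 6, 85803991 to 85807223, minus strand), the gene of IκBα, was 92.7, 153, 97.3 and 145 CPM in 9-month females 1, 3, 4 and 5, and 183, 129.9, 101 and 67.5 CPM in 24-month control females 2, 4, 5 and 6. With RLX it was 91.7, 107, 175 and 239.9 CPM in females 1, 2, 4 and 6. RLX females 4 and 6 were high for both Tnf and Nfkbia, as was control female 2. In males it was 208, 254 and 243 CPM in 9-month rats 3, 2 and 4, 317, 202 and 142 CPM in 24-month controls 12, 8 and 11, and 156, 112 and 213 CPM in RLX rats 2, 3 and 7. The log2 fold change was -0.02 (SE 0.311) with age and 0.34 (SE 0.408) with RLX in females, and -0.12 (SE 0.266) and -0.43 (SE 0.315) in males.

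Tnfaip3 (chromosome 1, 15954045 to 15963939, minus strand), which encodes the ubiquitin-editing enzyme A20, was 15.3, 18.5, 30.1 and 58.1 CPM in RLX females 1, 2, 4 and 6. It was 41.5, 15.9, 16.7 and 13.6 CPM in 24-month control females 2, 4, 5 and 6, and 11.4, 21.8, 19.7 and 28.2 CPM in 9-month females 1, 3, 4 and 5. The order of rats within each of these female groups was the same as for Tnf. In males its mean was 41.3 ± 12.2 CPM at 9 months, 37.0 ± 10.8 CPM at 24 months and 27.2 ± 14.8 CPM with RLX (SD, n = 3 each). The log2 fold change was 0.11 with age and 0.47 (SE 0.558, adjusted p = 0.76, edgeR) with RLX in females, and -0.19 and -0.41 in males. Without control female 2 the value in females was -0.38 with age and 0.98 with RLX, and without RLX female 6 the value with RLX was -0.05.

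**Figure D2:**
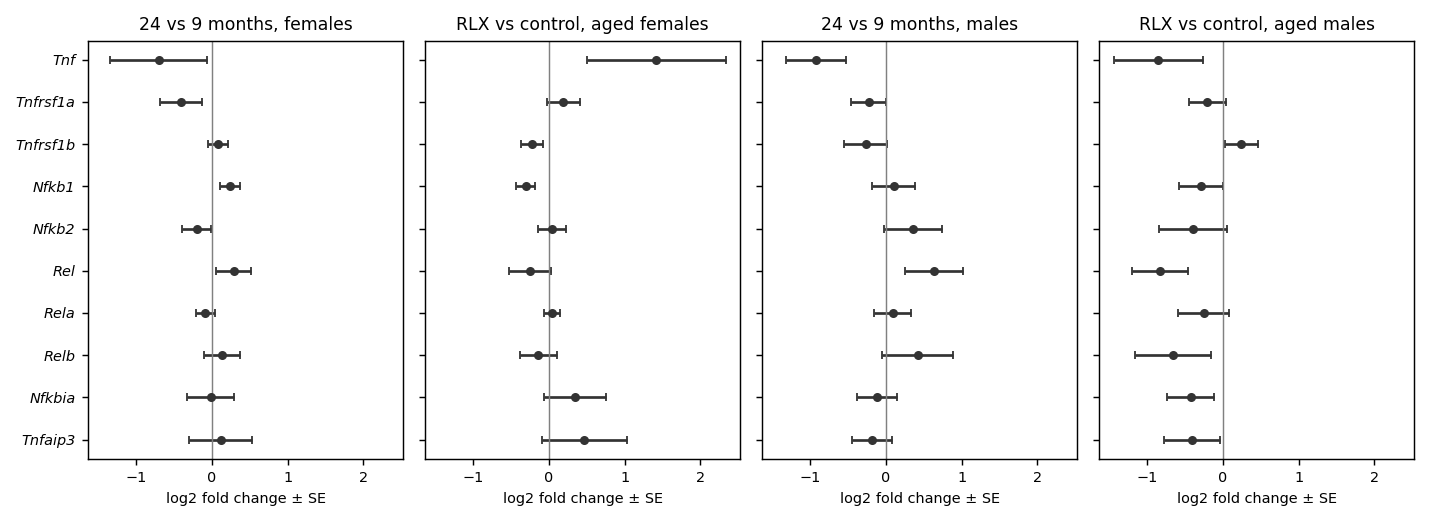
Log2 fold change of each gene with its SE (bars) in the 4 comparisons, from edgeR's quasi-likelihood fit. In aged males given RLX 9 of 10 points lie below 0, against 51.3% of all genes above 0. Their median of -0.40 was -0.04 without control male 12, and none passed the test.

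A differentially expressed gene (DEG) was one with a false discovery rate (FDR) of at most 0.05, a change of more than 1.5-fold either way, and at least 1 RPKM on average in one of its groups. All 10 genes were tested in every comparison and 0 of 10 were DEGs in any, by edgeR's quasi-likelihood test, by its exact test or, where it gave an adjusted p, by DESeq2. None reached the FDR alone, and the groups overlapped for all 10. In female aging 2.77% of 12696 genes were DEGs, 2.29% higher and 0.48% lower at 24 months. DESeq2 called 4.09% and the exact test 4.01%, 11.6% were higher and 9.64% lower at an unadjusted p under 0.05, and the groups did not overlap for 14.1%. None of the 10 genes reached an unadjusted p under 0.05 there. In aged females given RLX 0% of all genes were DEGs by the quasi-likelihood test, 1.14% by DESeq2 and 0.945% by the exact test. Of all genes 6.27% were higher and 7.81% lower by unadjusted p under 0.05, and 7.98% did not overlap. Of the 10 genes 1, Nfkb1, was among those lower.

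In male aging 0% of all genes were DEGs by the quasi-likelihood test, 0.483% by DESeq2 and 0.556% by the exact test. Of all genes 2.82% were higher and 5.73% lower by unadjusted p under 0.05, and 14.3% did not overlap. Of the 10 genes 1, Tnf, was among those lower. In aged males given RLX 0% were DEGs by the quasi-likelihood test, 0.916% by DESeq2 and 0.139% by the exact test. There 4.41% were higher and 7.55% lower at an unadjusted p under 0.05, 20.2% did not overlap, and 0 of the 10 genes reached that p. For 5 of them DESeq2 gave no adjusted p in this comparison, and its 0.916% is a share of all genes, also those without one.

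The median log2 fold change of the 10 genes was 0.03 in female aging, 0.04 with RLX in females and -0.02 in male aging, against medians of all genes between -0.01 and 0.01 over the 4 comparisons. With RLX in aged males it was -0.40, and 9 of the 10 values were negative, the exception being Tnfrsf1b. Positive values were seen for 51.3% of all genes there. Single rats moved these medians. Without control male 12 the median with RLX in males was -0.04 with 6 of 10 values negative, and that in male aging was -0.31 with 9 of 10 negative. Without control female 2 the median in female aging was -0.21 with 8 of 10 negative, and that with RLX in females was 0.15 with 8 of 10 positive. Without RLX male 7, the highest of the treated males for all 10 genes, the median with RLX in males was -0.84. Over the other single rats left out, the medians ran from -0.10 to 0.18 in female aging, from -0.073 to 0.11 with RLX in females, from -0.14 to 0.19 in male aging and from -0.61 to -0.17 with RLX in males.

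Whether an effect differed with sex was tested by an interaction term. For the aging effect 3.02% of 13090 genes passed an FDR of 0.05 and 19.9% an unadjusted p under 0.05, and none of the 10 genes passed either. For the RLX effect 0% of 13017 genes passed the FDR and 14.1% an unadjusted p under 0.05, and again none of the 10 did. The largest difference was that of Tnf with RLX, 1.42 in females against -0.86 in males on the log2 scale. Their fitted difference was 2.29 (SE 1.25, adjusted p = 0.443, edgeR), and it was 1.41 without RLX female 6.

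Other genes of the pathway were followed in 4 lists of 108 genes, of which 106 were in the tables and 84 to 87 were tested per comparison. Among the 22 adaptors and kinases tested, which carry the signal from receptor to IκB kinase, 0 were DEGs in any comparison by edgeR. The same held for DESeq2 where it gave an adjusted p. Their median log2 fold changes lay between -0.08 and 0.11. At an unadjusted p under 0.05, 1 gene was higher in female aging (11.6% of all genes). There 1 was lower in male aging (5.73% of all genes) and 1 with RLX in females (7.81%). The gene with the smallest p in female aging was Tradd, the adaptor of TNFR1, at 4.32 ± 0.950 CPM at 24 months against 2.81 ± 0.765 CPM at 9 months (SD, n = 4), a log2 fold change of 0.61 (adjusted p = 0.149, edgeR). Rbck1, of the linear ubiquitin ligase complex, and Chuk, which encodes IκB kinase alpha, followed at 0.18 and -0.24. With RLX in females they were Ripk1 (-0.24), Tab2 (0.23) and Ikbkb (0.19), in male aging Casp8 (-0.71), Birc2 (0.35) and Ikbke (-0.40), and with RLX in males Rbck1 (-0.38), Tab2 (0.27) and Chuk (0.29).

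Among the other TNF superfamily ligands and receptors, 1 of 23 genes tested was a DEG in female aging. It was Tnfsf13, the ligand APRIL, which supports plasma cells. Its CPM was 11.0, 11.1, 10.8 and 12.1 in 24-month control females 2, 4, 5 and 6 and 5.41, 9.61, 6.12 and 7.61 in 9-month females 1, 3, 4 and 5. The groups did not overlap, as for 14.1% of all genes in female aging. Tnfsf13 rose by 0.65 on the log2 scale (SE 0.165, adjusted p = 0.0429, edgeR), although the adjusted p reached 0.143 when single rats were left out. Tnfsf13b, the B cell factor BAFF, had a log2 fold change of 0.75 (adjusted p = 0.0732 in edgeR, 0.0301 in DESeq2) and Tnfsf12, TWEAK, of 0.37 (adjusted p = 0.166). Of the list 20 of 23 values were positive with a median of 0.24, against 49.9% positive values over all genes. By an unadjusted p under 0.05, 4 genes of the list were higher and 0 lower, against 11.6% and 9.64% of all genes. In the same aged females the macrophage and fibroblast markers were higher and the cardiomyocyte markers lower, each without overlap, and the T cell markers summed to 88.0 to 106 CPM against 48.4 to 63.6 CPM at 9 months. The part of these cells was not tested. With RLX in females 0 of 23 were DEGs, the median was -0.19, and Tnfsf12 (-0.30), Tnfsf13b (-0.46) and Tnfsf13 (-0.27) had the smallest p (adjusted p 0.320 to 0.369). The aged controls are shared by both comparisons.

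In male aging 0 of 20 genes of this list were DEGs by edgeR or DESeq2, and the median was -0.39. A lower value with an unadjusted p under 0.05 was seen for 6 of the 20, against 5.73% of all genes. The smallest p belonged to Tnfrsf21 (death receptor 6) at -0.90, Tnfrsf11b (osteoprotegerin) at -1.16 and Tnfsf9 (4-1BB ligand) at -0.96, with adjusted p of 0.417, 0.417 and 0.483 in edgeR. With RLX in males Tnfrsf11b was at 0.89, Tnfsf12 at -0.40 and Tnfrsf11a (the receptor RANK) at -0.66, and the median of 21 genes was 0.00.

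Of 15 other inhibitors and modulators 0 were DEGs in any comparison by the quasi-likelihood test. By an unadjusted p under 0.05, 2 were higher and 1 lower in female aging, against 11.6% and 9.64% of all genes. In female aging Pdlim2, which in mouse cells promotes the breakdown of nuclear RelA, was 13.2 ± 4.85 CPM at 24 months against 6.86 ± 2.25 CPM at 9 months (SD, n = 4), a log2 fold change of 0.95 (adjusted p = 0.0983 in edgeR, 0.0151 in DESeq2 and 0.0205 in the exact test). Tnip1, which binds A20, was at 0.33 and the deubiquitinase Otud7b at -0.27. With RLX in females Pdlim2 was at -0.57, Otud7b at 0.21 and Tax1bp1, an A20 partner, at -0.17. In male aging Nfkbid was at -0.86, Zfp36 at -0.50 and Otulin at 0.40. With RLX in males 5 had a lower and 1 a higher value with an unadjusted p under 0.05, against 7.55% and 4.41% of all genes. The median of the list was -0.30. Zfp36, the RNA-binding protein tristetraprolin that destabilizes Tnf mRNA, was at -0.73 (adjusted p = 0.309, edgeR), Itch at 0.45 and Pdlim2 at -0.59. Without control male 12 this median was 0.09.

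**Figure D3:**
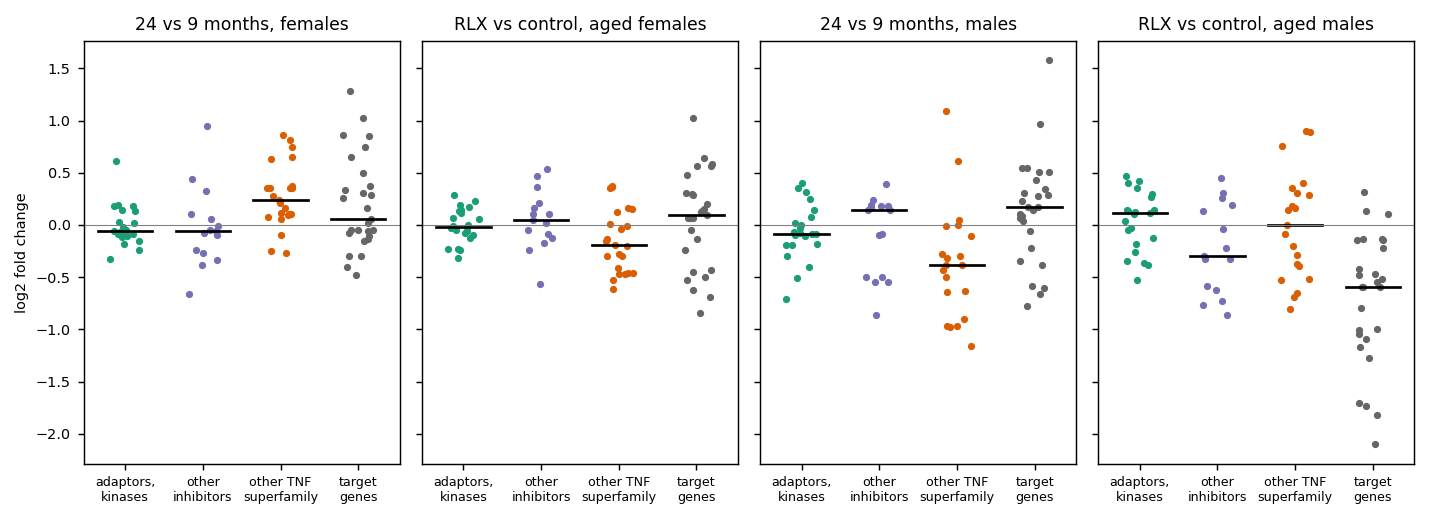
Log2 fold change of the genes tested in 4 lists of the pathway (points) with the list median (bar), in the 4 comparisons. The target genes given RLX in aged males have a median of -0.59, and the TNF superfamily a median of 0.24 in female aging and -0.39 in male aging.

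Among 27 NF-κB target genes tested 0 were DEGs in any comparison by the quasi-likelihood test. In female aging DESeq2 and the exact test called 4.09% and 4.01% of all genes, and each called 2 of the target genes. These were Ptgs2 (cyclooxygenase-2), with a log2 fold change of 1.03 and an adjusted p of 0.0566 in edgeR and 0.00322 in DESeq2, and the chemokine Ccl5, with 0.85 and an adjusted p of 0.0578 in edgeR and 0.00278 in DESeq2. Sod2, mitochondrial superoxide dismutase, was at -0.30. With RLX in females Plau (urokinase) was at -0.46, Ccl5 at -0.62 and Ptgs2 at -0.69, with adjusted p of 0.238 to 0.508 in edgeR. In male aging the chemokine Ccl20 was at 1.58, Cd83 at -0.66 and Ccl5 at -0.60. The list median was 0.17 there and -0.45 without control male 12.

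With RLX in aged males 24 of 27 target genes had negative values and the median was -0.59, against 0.01 for all genes. Positive values were seen for 51.3% of all genes. At an unadjusted p under 0.05, 5 target genes were lower and 0 higher, against 7.55% and 4.41% of all genes. The smallest p were those of Gadd45b (a stress-response gene), Il1b and Il6, both cytokines. Gadd45b was 34.3, 25.3 and 41.5 CPM in RLX males 2, 3 and 7 and 98.8, 58.3 and 55.9 CPM in control males 12, 8 and 11, a difference of -1.04 on the log2 scale (SE 0.252, adjusted p = 0.283 in edgeR and 0.0156 in DESeq2). Il1b was 14.0, 14.3 and 40.1 CPM with RLX and 128, 44.5 and 61.5 CPM in the same controls, at -1.73 (SE 0.543, adjusted p = 0.326 in edgeR). Il6 was 9.70, 2.36 and 7.65 CPM with RLX and 61.4, 14.3 and 12.1 CPM in the controls, at -2.10 (SE 0.757, adjusted p = 0.366 in edgeR). For all 3 genes the groups did not overlap, as for 20.2% of all genes in this comparison. Without control male 12 the values were -0.73 for Gadd45b, -1.17 for Il1b and -0.97 for Il6, and the list median was -0.24. Without RLX male 7 they were -1.21 for Gadd45b and -2.42 for Il1b, and without control male 11 the value for Il6 was -2.48. The immediate-early genes, which respond to handling and acute stimulation, summed to 948 to 1565 CPM in RLX males and to 1665 to 2623 CPM in 24-month control males, and their part in these values was not tested.

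The 10 genes moved together from rat to rat within groups. Control male 12 was the highest of its group for 10 of 10 genes, as was RLX male 7, and the 24-month control female 2 for 9. Conversely, 9-month female 1 and 9-month male 3 were the lowest of their groups for 10 of 10, and control female 6 for 9. On average over the 10 genes control male 12 lay 0.59 above its group mean on the log2 scale, RLX male 7 lay 0.68 above and control female 2 lay 0.60 above. Control male 12 also had the lowest endothelial marker sum of the 21 libraries, 232 CPM. Control males 8 and 11 had 378 and 390 CPM. The part of this difference in the values of control male 12 was not tested. The coefficient of variation within groups was 67.1% for Tnf, above 98.8% of 13216 genes, 45.2% for Tnfaip3, 40.1% for Relb, 35.7% for Rel, 33.5% for Nfkb2 and 32.2% for Nfkbia. The other 4 lay between 20.7% and 25.5%, against a median of 17.4% over all genes.

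**Figure D4:**
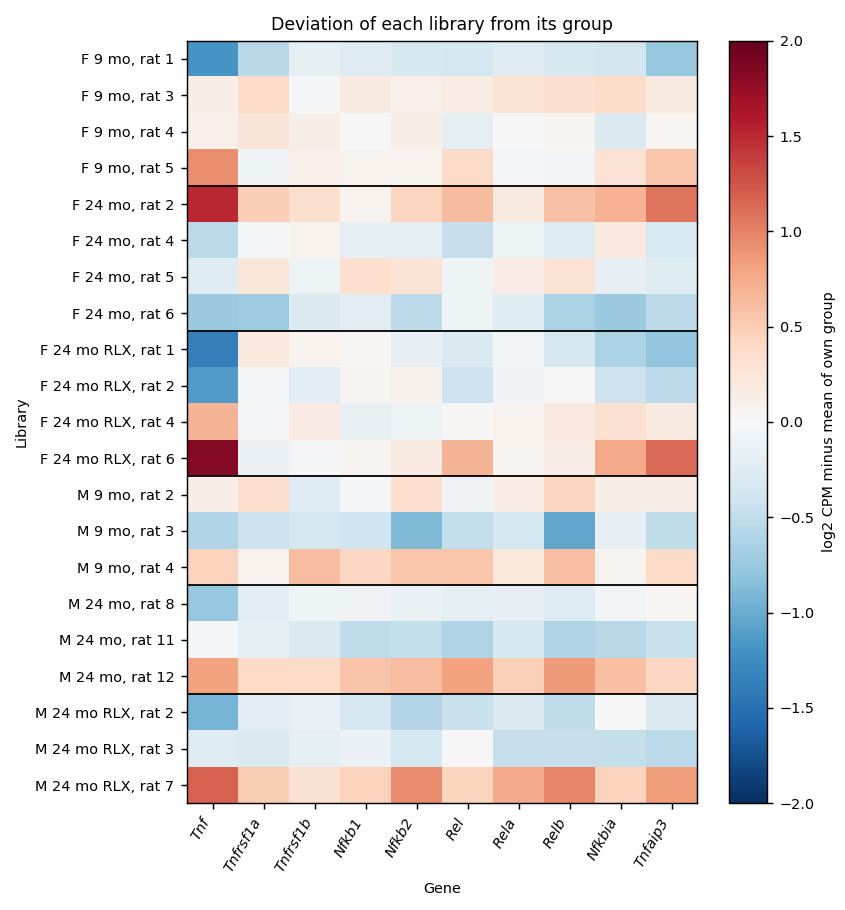
Log2 CPM of each of the 10 genes (columns) in each library (rows) minus the mean of the library's own group; F and M mark sex and mo the age in months. Rows are largely of 1 color, with RLX male 7 and control male 12 above their groups and 9-month female 1 and 9-month male 3 below for all 10 genes.

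Correlations were computed for the 45 pairs from log2 CPM after the mean of each of the 6 groups was removed, over 21 libraries, with p-values from 100000 permutations of rats within groups. All 45 were positive, with a median Pearson's r of 0.71 and a range from 0.47 to 0.97. All 45 had an adjusted p of at most 0.05, for Pearson's r as for Spearman's rho. The median r was 0.63 within the 12 females and 0.87 within the 9 males, and every pair was positive in both. In females alone 16 pairs passed. Leaving out the 2 libraries farthest from the median of the first gene of a pair gave a median r of 0.66, with 38 pairs passing. Removal of a trend on gene length, an alternative chosen after the data were seen, left the median at 0.68 with 45 passing.

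For comparison, the median r of Tnf with all 11940 other genes of at least 1 CPM was 0.00, and only 4.86% of them reached an r of 0.47, the lowest seen between any of the 10 genes. That share was 4.91% for Nfkbia, 7.01% for Tnfaip3, 9.13% for Tnfrsf1b, 9.15% for Rel and 12.3% for Tnfrsf1a. It was 15.2% for Nfkb1, 16.3% for Relb and 17.0% for both Nfkb2 and Rela. Correlations of this size were therefore more common around the subunits and receptors than around Tnf.

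The highest r was that of Nfkb2 with Relb, 0.97 (rho 0.97, p = 6e-05, adjusted p = 0.000506 over 45 pairs), with 0.91 in females, 0.99 in males and 0.94 without the 2 farthest libraries. These are the genes of p100 and of the subunit it holds in the cytoplasm. Tnf and Tnfaip3 had an r of 0.93 (rho 0.92, p = 0.00013, adjusted p = 0.000532), 0.99 in females, 0.80 in males and 0.88 without the 2 farthest, RLX female 6 and control female 2. Of all genes 0.0503% had a higher r with Tnf than Tnfaip3 had. Nfkbia and Tnfaip3, the inhibitors, had an r of 0.88 (rho 0.90, p = 3e-05, adjusted p = 0.00045), 0.89 in females, 0.85 in males and 0.85 without the 2 farthest. The share of genes with a higher r with Nfkbia was 0.00838%. Rela and Relb had an r of 0.93 (rho 0.96, p = 2e-05, adjusted p = 0.00045), 0.91 in females, 0.94 in males and 0.93 without the 2 farthest. The lowest r was that of Tnf with Nfkb1, 0.47 (rho 0.56, p = 0.0205, adjusted p = 0.022), 0.29 in females and 0.81 in males. In these rats Tnf thus went most with Tnfaip3, Rel and Nfkbia, and the other subunits and Tnfrsf1a with each other.

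**Figure D5:**
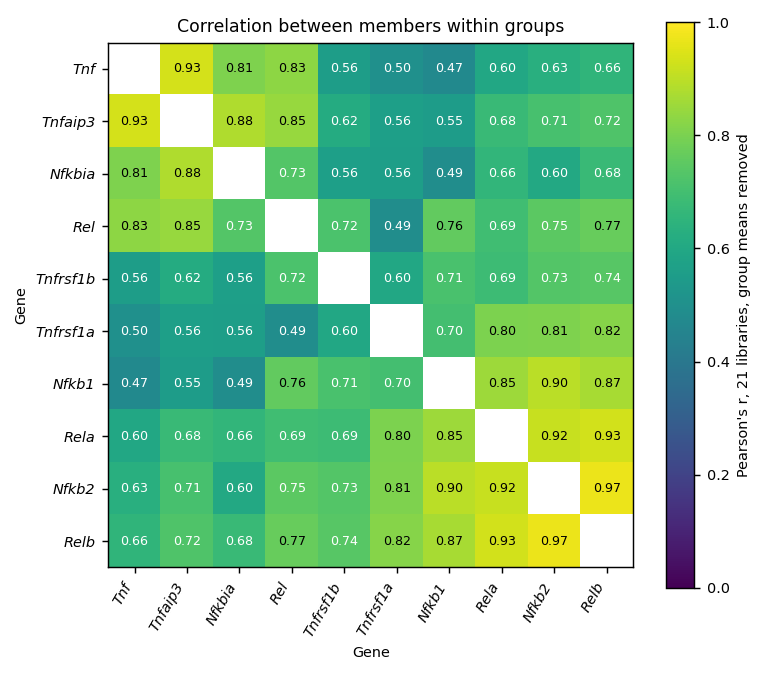
Pearson's r between each pair of the 10 genes over 21 libraries after removal of the group means of log2 CPM (color and printed value). Tnf, Tnfaip3, Nfkbia and Rel stand together at the upper left (0.73 to 0.93), and Nfkb1, Rela, Nfkb2 and Relb at the lower right (0.85 to 0.97).

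Macrophage markers were not highest in the same rats throughout. RLX female 6, the highest treated female for Tnf, had the lowest macrophage sum of its group, 487 CPM, and RLX male 7 the lowest of its group, 576 CPM. Control male 12 had the highest of its group, 733 CPM, while control female 2, at 879 CPM, lay between 848 and 1053 CPM. Immediate-early genes summed to 2388 CPM in RLX female 6, 2099 CPM in control male 12 and 2700 CPM in control female 2, the highest of its group. RLX male 7 had the lowest sum of its group, 948 CPM. By mean log2 CPM, RLX male 3 was the lowest of that group, at 4.53 against 5.07 in RLX male 7. Over all 21 libraries, with group means removed, r with the mean log2 CPM of the immediate-early genes ran from 0.02 (Nfkb1) to 0.48 (Tnfrsf1b). It ran from -0.58 (Tnfrsf1a) to -0.11 (Tnfrsf1b) with the fibroblast markers. With the macrophage markers it ran from -0.37 (Nfkb2) to 0.11 (Tnfrsf1b). The part of cell makeup and of handling in the correlations was not tested.

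Over all named genes, those most like Tnf in the same group-centered values were the chemokine genes Cxcl2 (r = 0.95) and Ccl9 (0.94), Il1b (0.94), Cxcl1 (0.94) and Nfkbid (0.94), which encodes a nuclear IκB protein. The genes most like Nfkbia were Cxcl1 (0.89), Tnfaip3 (0.88), the kinase gene Mapkapk3 (0.88), Cxcl2 (0.86) and Ccl9 (0.84). Those most like Rela were Ptpn1 (0.96), Vps37c (0.94), Relb (0.93), Tnfrsf12a (0.93), the receptor of TWEAK, and Stx6 (0.92). These values are over 21 libraries and are a description only.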

How the data were processed

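Left ventricles of 21 rats were analysed, and the labels number each library as a separate rat, so that p-values measure the spread between rats. The series' design text also mentions technical replicates per sample, which are not separate in the tables. The authors sequenced ribosome-depleted RNA as paired-end reads of 75 bases and mapped them to the rat genome in Biomedical Genomics Workbench 3.0.1. The build is not given in any source used here. The 4 deposited tables hold the authors' total counts per gene, which are not normalized, and the authors' RPKM values, which are scaled to gene length and sequencing depth. Columns of CPM and TPM in the same tables were left out.

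Counts were tested in R 4.3.3 with edgeR 4.0.16. Each comparison used its 2 groups alone, with filterByExpr, TMM scaling, glmQLFit in its robust form and Benjamini-Hochberg adjustment over all genes tested. The SE is the size of the log2 fold change divided by the square root of F. CPM were scaled over the 21 libraries, and correlations used log2 CPM with a prior count of 2. The genes, lists, markers and tests were chosen with earlier results of these data known, so their counts are descriptions. The text names the 10 genes, per list and comparison up to 3 genes with the smallest p, and for Tnf, Nfkbia and Rela the 5 genes with the highest r. Traf5, Rnf11 and Adgre1 were not analysed here. The κB motif was chosen after the expression results were seen. The pipeline was tested on simulated data. Alternatives were DESeq2 1.42.0, the exact test of edgeR, scaling by RLE, omission of filterByExpr, a fit of each sex with its 3 groups together, correction for gene length, a block on rat number, and omission of single libraries.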

Additional observations from a re-analysis of the deposited data

Results flagged for a closer look

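Within groups of 4 females, 3 values of the 10 genes stood apart from the rest of their group (the gap to the nearest rat, divided by the range of the group, passed Dixon's 95% limit). Chance flags about 1 in 20 groups, and 30 groups of 4 were examined. Tnf was 31.9 CPM in 24-month control female 2, and the nearest rat of that group had 9.48 CPM. Tnfaip3 was 41.5 CPM in the same rat, and the nearest had 16.7 CPM. Nfkb1 was 41.4 CPM in RLX female 4, and the nearest had 46.8 CPM. RLX female 4 is also the library with 11230 CPM of erythroid markers, and whether the 2 are related was not tested.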

How the results depend on the processing

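No call on the 10 genes changed under any alternative: 0 were DEGs in each one run, and 0 passed the interaction tests. The correlations in which gene length was corrected for were added after the data were seen. Directions turned in 5 of the single-gene values under another setting. With the rat number as a replicate block in female aging they were -0.052 for Tnfrsf1b, -0.12 for Rel and -0.53 for Tnfaip3, and with the block in females given RLX 0.12 for Relb. Same-numbered females correlated by -0.19 to 0.15 in their deviations from the group means. Differently numbered females were not set beside them, so these values cannot tell whether the numbers pair rats. The block left the call on every one of the 10 genes as it was. No paired analysis was possible in males because the groups compared share no rat numbers. With a trend on gene length removed Tnfrsf1b was -0.019 with RLX in males. Over the pathway lists in female aging the count of DEGs was 1, and it was 5 with DESeq2, 5 with the exact test, 2 with all 3 groups in one fit, 2 with the length trend removed, 0 with the block and 0 to 2 with single rats left out. It was 0 without 24-month control females 4 or 6 or 9-month females 1 or 4, and 2 without control female 5. With RLX in males DESeq2 called 1, and in females alone 16 of 45 correlations passed.

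Leaving out single rats turned the direction of the following log2 fold changes, given as the lowest and highest value. In female aging they were -0.28 to 0.18 for Nfkbia, -0.16 to 0.013 for Rela, -0.075 to 0.31 for Relb, -0.38 to 0.31 for Tnfaip3 and -0.029 to 0.17 for Tnfrsf1b. With RLX in females they were -0.11 to 0.20 for Nfkb2, -0.53 to 0.0087 for Rel, -0.035 to 0.11 for Rela, -0.31 to 0.085 for Relb and -0.051 to 0.98 for Tnfaip3. In male aging they were -0.23 to 0.35 for Nfkb1, -0.0034 to 0.65 for Nfkb2, -0.46 to 0.12 for Nfkbia, -0.18 to 0.25 for Rela, -0.11 to 0.73 for Relb, -0.40 to 0.029 for Tnfaip3 and -0.47 to 0.13 for Tnfrsf1b. With RLX in males they were -0.55 to 0.054 for Nfkb1, -0.73 to 0.029 for Rela and -0.50 to 0.020 for Tnfrsf1a. For the difference between the sexes in aging they were -0.13 to 0.45 for Nfkb1, -0.20 to 0.43 for Nfkbia, -0.71 to 0.12 for Rel, -0.35 to 0.080 for Rela, -0.60 to 0.23 for Relb, -0.60 to 0.68 for Tnf, -0.23 to 0.50 for Tnfaip3, -0.39 to 0.017 for Tnfrsf1a and -0.058 to 0.54 for Tnfrsf1b, and in RLX -0.32 to 0.25 for Nfkb1. Groups of 3 or 4 rats limit the precision of all these values.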
